A study of Homo sapiens with 12 samples.

Results

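Transcripts of 8 genes that move water and small organic solutes across the membrane and set cell volume were followed across 12 RNA sequencing libraries of human mammary epithelial cells. The genes are AQP1, AQP3, SLC6A6, SLC5A3, NFAT5, AKR1B1, LRRC8A and LRRC8D, taken by symbol from the 26364 genes of each deposited table. They were chosen by name, with their earlier results in these same libraries known. Their own values are therefore given as a description, with intervals and with no p-value. How many of them passed a threshold is printed beside the share of all genes that did, and nothing is read from it. P-values are given for other genes of the same pathways.

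HMLE cells are an established, immortalised line of human mammary epithelium. HMLE-Twist is the line that the labels give the phenotype EMT, for epithelial to mesenchymal transition, and HMLE-pBp is the line labelled nonEMT. Each line received 0.2 uM salinomycin, an ionophore that carries potassium across membranes, or DMSO as the mock, for 24 hours. The 4 groups were HMLE-Twist with salinomycin, HMLE-Twist with mock, HMLE-pBp with salinomycin and HMLE-pBp with mock, each with 3 biological replicates. All were grown in the same serum-containing medium with insulin and hydrocortisone. Each phenotype is represented by 1 line, so a difference between the lines cannot be told apart from other differences between these cultures.

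A cell in a salty or shrinking environment takes up or makes small organic solutes, called organic osmolytes, which draw water without disturbing proteins as inorganic salts do. The transcription factor NFAT5 is the known master regulator of this response in kidney and other tissues, and it drives the genes for taurine uptake (SLC6A6), myo-inositol uptake (SLC5A3) and sorbitol synthesis (AKR1B1). A swollen cell does the reverse: it opens volume-regulated anion channels, built from LRRC8 subunits, and lets chloride and organic osmolytes out. Aquaporins set how fast water itself follows.

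Reads were recovered from the deposited values, and levels are given as FPKM (read counts divided by gene length and library size, on 1 scale for all libraries). Libraries held between 17.92 and 26.76 megareads recovered. TWIST1, the gene that names the line, lay between 692 and 1161 FPKM in HMLE-Twist with salinomycin and between 495 and 1087 FPKM in HMLE-Twist with mock, against 1.79 to 2.31 FPKM in HMLE-pBp with salinomycin and 2.43 to 2.50 FPKM in HMLE-pBp with mock. The summed FPKM of 8 epithelial markers ran from 38.8 to 45.5 in HMLE-Twist with salinomycin and 38.8 to 46.5 in HMLE-Twist with mock, against 2410 to 2520 in HMLE-pBp with salinomycin and 2710 to 3190 in HMLE-pBp with mock. That of 7 mesenchymal markers ran from 4630 to 5360 and 3460 to 4270 in the same HMLE-Twist groups, against 512 to 594 and 467 to 495 in the same HMLE-pBp groups. The mock libraries of HMLE-Twist differed in their long genes. The median deviation of 385 genes of at least 10000 bases from their group mean was 0.13, -0.02 and -0.11 on the log2 scale in mock replicates 1, 2 and 3 of that line, and within 0.03 of 0 in each library of the other groups.

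Upstream sequence is shown for the aquaporins and for the core channel subunit, since AQP3 and LRRC8A had the largest differences between the lines among the 8 genes. The sequences are the 250 bases before the RefSeq start on GRCh38.p14, read 5′ to 3′ on the gene's strand: AQP1 at chr7:30911603-30911852 (plus strand), AQP3 at chr9:33447594-33447843 (minus strand) and, of LRRC8A's pair of starts, the upstream one at chr9:128881883-128882132 (plus strand). Capitals mark TATAAA, the letters of the TATA box, and CANNTG, the E-box that TWIST1 and related factors recognise.
AQP1: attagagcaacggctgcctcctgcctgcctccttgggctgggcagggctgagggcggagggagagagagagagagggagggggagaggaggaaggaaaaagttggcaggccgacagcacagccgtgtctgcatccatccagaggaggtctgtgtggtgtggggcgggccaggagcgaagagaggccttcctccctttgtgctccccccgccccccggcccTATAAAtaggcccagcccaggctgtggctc
AQP3: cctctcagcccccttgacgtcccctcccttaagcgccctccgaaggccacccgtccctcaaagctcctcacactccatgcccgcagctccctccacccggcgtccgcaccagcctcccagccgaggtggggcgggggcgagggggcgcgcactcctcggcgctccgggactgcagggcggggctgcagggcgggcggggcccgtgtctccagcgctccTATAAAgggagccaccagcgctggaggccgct
LRRC8A: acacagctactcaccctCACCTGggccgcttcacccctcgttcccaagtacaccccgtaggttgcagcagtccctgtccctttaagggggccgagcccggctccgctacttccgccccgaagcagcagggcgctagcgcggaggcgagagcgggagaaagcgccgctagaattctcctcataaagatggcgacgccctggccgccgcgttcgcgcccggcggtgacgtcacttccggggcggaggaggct
Windows were available for 6 of the 8 genes, 9 windows in all, and SLC6A6 and NFAT5 had none. TATAAA on either strand stood in 2 of the 9 windows, those of AQP1 (first base 30 before the start) and AQP3 (32 before it), and in 10.7% of 35116 windows of the same length. CANNTG, which reads alike on both strands, stood in 6 of the 9 windows and in 61.8% of all. The windows of AQP1, of AQP3 and of LRRC8A's downstream start, which is not printed, did not hold it. TGGAAA, the core that NFAT5 and other NFAT factors bind, or its complement TTTCCA, stood in 0 of the 9 windows and in 18% of all. A match of letters is not a binding site, and a window without a match covers only these 250 bases.

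AQP3 forms the aquaglyceroporin that passes water and glycerol and sits in the basolateral membrane of epithelia. It was the gene of the 8 that differed most between the lines and most with salinomycin in HMLE-pBp. Its levels were 0.505, 0.440 and 0.550 FPKM in HMLE-Twist with salinomycin and 0.948, 1.21 and 1.01 FPKM in HMLE-Twist with mock. They were 24.4, 34.0 and 30.7 FPKM in HMLE-pBp with salinomycin and 97.6, 82.5 and 73.1 FPKM in HMLE-pBp with mock. The 4 groups did not overlap, and in both lines every salinomycin library was below every mock library. Such separation of treatments was common, at 40.3% of the 11991 genes tested in HMLE-Twist and 41.6% in HMLE-pBp. Salinomycin lay above mock for 19.1% and 20.1%, and below it for 21.2% and 21.4%. Between lines 69.8% of the genes separated under salinomycin and 73.9% under mock. These shares stand beside each separation of levels below. In bulk RNA, fewer cells that express a gene and less of its RNA per cell cannot be told apart, and this holds for each level below.

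The mean of AQP3 under salinomycin was 0.352 times the mock mean in HMLE-pBp, 29.7 ± 4.91 against 84.4 ± 12.3 FPKM (SD, n = 3 each). In HMLE-Twist it was 0.472 times the mock mean, 0.499 ± 0.0554 against 1.06 ± 0.137 FPKM (SD, n = 3 each), from 18 to 27 reads with salinomycin and 39 to 54 with mock. The log2 fold changes of FPKM + 1 were -1.48 ± 0.13 in HMLE-pBp and -0.45 ± 0.13 in HMLE-Twist (SE from limma). The added 1 shrinks the second of these: with 0.1 added it was -0.95. The difference of the responses, HMLE-Twist minus HMLE-pBp, was 1.02 ± 0.18 with 1 added and 0.56 with 0.1 added. The size of that difference thus depended on the pseudocount, which weighs on a gene near 1 FPKM. Between lines, AQP3 in HMLE-Twist was 0.0168 times its HMLE-pBp mean under salinomycin and 0.0125 times under mock. Its recovered length of 1871 bases was 0.64 times the longest reference transcript. Mock reads were recovered with this length and salinomycin reads without it. A wrong length would thus shift the ratios of salinomycin over mock, and not those between lines under the same treatment. Whether the length is wrong was not tested.

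**Figure D1:**
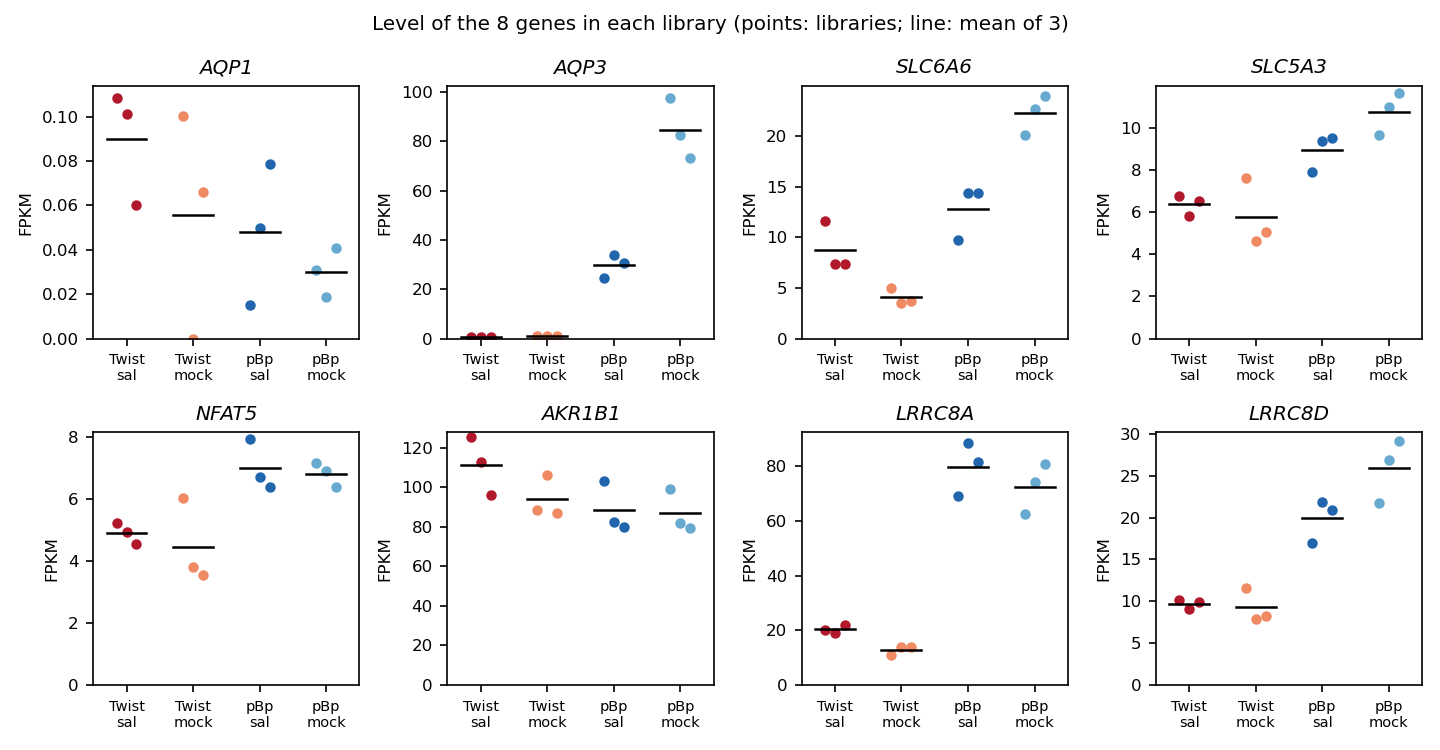
FPKM of each of the 8 genes (linear axes from 0, a scale per panel) in the 12 libraries, with salinomycin (sal) left of mock and HMLE-Twist left of HMLE-pBp. Points are libraries and lines are means of 3; AQP3 separates all 4 groups, SLC6A6 moves opposite ways in the lines, and the AKR1B1 groups overlap.

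AQP1, the water channel of red cells, kidney tubules and capillary endothelium, was near the limit of detection. It had 8, 7 and 5 reads in HMLE-Twist with salinomycin and 7, 0 and 6 with mock, and 1, 3 and 5 reads in HMLE-pBp with salinomycin and 2, 1 and 3 with mock. Its highest level was 0.108 FPKM. Salinomycin and mock libraries overlapped in both lines, no response was detectable at this depth, and AQP1 stayed out of the tests, which required 1 FPKM in at least 3 libraries. The library without a read, the second HMLE-Twist mock, allows up to 0.0456 FPKM (3 reads, counting error only).

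Markers of the cell types that express AQP1 were also low. The summed FPKM of 6 endothelial markers reached 1.82 in HMLE-Twist with salinomycin and 1.46 in HMLE-Twist with mock, against 0.107 in HMLE-pBp with salinomycin and 0.0997 in HMLE-pBp with mock. KDR was the highest of the 6, with means of 0.947 and 0.81 FPKM in HMLE-Twist with salinomycin and mock. Its means were 0.00536 and 0.0239 FPKM in HMLE-pBp, in the same order. TEK came next, with means of 0.479 and 0.231 FPKM in HMLE-Twist and 0.0382 and 0.0211 FPKM in HMLE-pBp. CDH5, the endothelial cadherin, had no read in either salinomycin group, and EMCN had none at all. Of the erythroid markers, HBB and ALAS2 had no read in any library. HBA1, which has a near-identical copy, had 0 to 3 reads per library in HMLE-Twist with salinomycin and 2 to 5 with mock, and none in HMLE-pBp. SLC4A1 had 1 read, in HMLE-Twist with mock. Whether these cells contributed AQP1 reads was not tested.

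The other 12 aquaporins were also low. AQP2, AQP4, AQP10, AQP12A and AQP12B had no read, and the remaining 7 stayed under 1 FPKM, the highest value being 0.783 FPKM for AQP11 in HMLE-Twist with mock. AQP11, an aquaporin of intracellular membranes, had 0.319, 0.489 and 0.283 FPKM in HMLE-Twist with salinomycin and 0.486, 0.783 and 0.698 FPKM with mock. The HMLE-pBp values were 0.132, 0.146 and 0.139 FPKM with salinomycin and 0.136, 0.327 and 0.302 FPKM with mock. AQP3 was thus the only one of the 14 aquaporins that entered the tests.

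SLC6A6, the sodium-driven taurine transporter, was the gene of the 8 whose treated libraries lay above all mock libraries in one line and below all of them in the other. It had 11.6, 7.38 and 7.32 FPKM in HMLE-Twist with salinomycin and 4.99, 3.48 and 3.71 FPKM with mock, and every salinomycin library lay above every mock library. The HMLE-pBp libraries held 9.73, 14.4 and 14.3 FPKM with salinomycin and 20.1, 22.7 and 23.9 FPKM with mock, and every salinomycin library lay below every mock library. The mean with salinomycin was 2.16 times that with mock in HMLE-Twist and 0.576 times in HMLE-pBp. On the log2 scale these were 0.93 ± 0.19 and -0.77 ± 0.19, and their difference was 1.70 ± 0.26.

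The first replicate stood out in both salinomycin groups, highest in HMLE-Twist and lowest in HMLE-pBp. Without it, the log2 fold change came to 0.73 in HMLE-Twist and to -0.59 in HMLE-pBp. The opposite shifts brought the lines together. Under mock, the mean of SLC6A6 in HMLE-Twist was 0.183 times that in HMLE-pBp, 4.06 ± 0.814 against 22.2 ± 1.97 FPKM. Under salinomycin it was 0.685 times, 8.78 ± 2.48 against 12.8 ± 2.67 FPKM (SD, n = 3 each), and the libraries of the 2 lines overlapped.

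SLC5A3, the sodium and myo-inositol cotransporter, shifted less than SLC6A6. It had 6.75, 5.84 and 6.51 FPKM in HMLE-Twist with salinomycin and 7.63, 4.62 and 5.04 FPKM with mock, and 7.92, 9.38 and 9.53 FPKM in HMLE-pBp with salinomycin and 9.65, 11 and 11.6 FPKM with mock. The mock libraries of HMLE-Twist lay on both sides of the salinomycin ones. In HMLE-pBp all 3 salinomycin libraries were below the lowest mock library, by a narrow margin. The log2 fold changes were 0.15 ± 0.14 in HMLE-Twist (95% interval -0.17 to 0.46) and -0.24 ± 0.14 in HMLE-pBp (-0.56 to 0.07). Without mock replicate 1 the HMLE-Twist value was 0.34. Reference annotation puts 273 exon bases of SLC5A3 in the ribosomal protein gene MRPS6 on the same strand. MRPS6 ran from 33.7 to 36.1 FPKM in HMLE-Twist with salinomycin and 38.8 to 48.8 FPKM with mock, and from 28.8 to 30.9 FPKM in HMLE-pBp with salinomycin and 30 to 32.8 FPKM with mock. How far shared reads enter the SLC5A3 level was not tested.

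NFAT5 showed no separation by treatment. Its levels were 5.24, 4.94 and 4.53 FPKM in HMLE-Twist with salinomycin and 6.04, 3.79 and 3.53 FPKM with mock, and 7.92, 6.71 and 6.39 FPKM in HMLE-pBp with salinomycin and 7.15, 6.90 and 6.37 FPKM with mock. The libraries overlapped in both lines. The log2 fold changes were 0.14 ± 0.14 in HMLE-Twist (95% interval -0.18 to 0.46) and 0.03 ± 0.14 in HMLE-pBp (-0.28 to 0.35), so a change of the size seen for SLC6A6 lies outside both intervals. The HMLE-Twist value was 0.34 without mock replicate 1. The recovered lengths of NFAT5 and SLC5A3, 13672 and 11623 bases, put both among the long genes, whose median log2 fold change in HMLE-Twist was 0.08, and the part of this in their values was not tested. NFAT5 is also controlled through its protein's stability and entry into the nucleus, which RNA levels do not show.

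AKR1B1, aldose reductase, turns glucose into the osmolyte sorbitol. It was the most abundant of the 8 genes in HMLE-Twist, with 125, 113 and 96.2 FPKM with salinomycin and 88.7, 106 and 87.2 FPKM with mock. In HMLE-pBp it had 103, 82.6 and 79.7 FPKM with salinomycin and 99.0, 82.0 and 79.6 FPKM with mock. The 4 groups overlapped, with log2 fold changes of 0.24 ± 0.13 in HMLE-Twist and 0.02 ± 0.13 in HMLE-pBp (95% intervals -0.05 to 0.53 and -0.27 to 0.31). The 3 genes that NFAT5 is known to drive thus had log2 fold changes of 0.93, 0.15 and 0.24 in HMLE-Twist and of -0.77, -0.24 and 0.02 in HMLE-pBp, for SLC6A6, SLC5A3 and AKR1B1 in that order.

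LRRC8A is the subunit without which the volume-regulated anion channel does not form, and LRRC8D is the partner known to favour the passage of taurine and other organic solutes. LRRC8A had 20.2, 19.0 and 22 FPKM in HMLE-Twist with salinomycin and 11, 13.7 and 13.8 FPKM with mock, with no overlap. The HMLE-pBp levels of LRRC8A were 69.0, 88.4 and 81.5 FPKM with salinomycin and 62.6, 74.2 and 80.6 FPKM with mock, and the groups overlapped. The log2 fold changes were 0.64 ± 0.12 and 0.14 ± 0.12, with a difference of 0.50 ± 0.17 (HMLE-Twist minus HMLE-pBp). The means of LRRC8A in HMLE-Twist were 0.257 times those in HMLE-pBp under salinomycin and 0.177 times under mock.

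LRRC8D had 10.1, 9.02 and 9.88 FPKM in HMLE-Twist with salinomycin and 11.6, 7.88 and 8.29 FPKM with mock, which overlapped, for a log2 fold change of 0.07 ± 0.15. It had 16.9, 21.8 and 20.9 FPKM in HMLE-pBp with salinomycin and 21.7, 26.9 and 29.1 FPKM with mock. There the highest salinomycin library reached just past the lowest mock library, and the log2 fold change was -0.36 ± 0.15. With the replicate numbers as a block within each line, the value stayed -0.36 and its SE was 0.09.

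The other 3 subunits join LRRC8A in the channel, and between the lines LRRC8B was higher and LRRC8E lower in HMLE-Twist. LRRC8B had 8.61, 9.77 and 8.36 FPKM in HMLE-Twist with salinomycin and 13.4, 10.6 and 8.10 FPKM with mock, against 4.24, 3.72 and 4.34 FPKM in HMLE-pBp with salinomycin and 3.73, 3.73 and 3.71 FPKM with mock. It was higher in HMLE-Twist, by 0.96 ± 0.14 on the log2 scale under salinomycin (limma adjusted p = 5.71e-05) and by 1.29 ± 0.14 under mock (limma adjusted p = 3.19e-06). LRRC8E was lower in HMLE-Twist, with log2 differences of -1.45 ± 0.15 under salinomycin (limma adjusted p = 3.3e-06) and -2.24 ± 0.15 under mock (limma adjusted p = 4.26e-08). LRRC8C did not pass between lines, at 0.30 ± 0.15 and -0.15 ± 0.15 in the same order. LRRC8C passed under mock without HMLE-Twist mock replicate 1 (limma adjusted p = 0.0394), and under salinomycin with total reads as the scale (limma adjusted p = 0.0172).

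With salinomycin, 0 of these 3 subunits passed in either line with limma, and 1 in each line had an unadjusted p under 0.05, in both cases LRRC8E. LRRC8E passed in HMLE-Twist with 0.1 added (limma adjusted p = 0.0395), with total reads as the scale (limma adjusted p = 0.0458) and with TPM (limma adjusted p = 0.0287). Single libraries also changed calls there: without mock replicate 3, LRRC8B passed at -0.39 (limma adjusted p = 0.0201) and LRRC8E at 0.54 (limma adjusted p = 0.0227), and without mock replicate 1, LRRC8C passed at 0.41 (limma adjusted p = 0.0366). In HMLE-pBp, LRRC8E passed without mock replicate 1 at -0.53 (limma adjusted p = 0.0293). LRRC8E had 4.21, 3.70 and 4.62 FPKM in HMLE-Twist with salinomycin and 2.54, 2.58 and 3.54 FPKM with mock. LRRC8E in HMLE-pBp had 11.5, 14.0 and 13.9 FPKM with salinomycin and 13.7, 18 and 20.9 FPKM with mock. Its difference of responses was 0.79 ± 0.21 (limma adjusted p = 0.0301), a call that ended with no filter (limma adjusted p = 0.0565). The adjusted p ran from 0.0508 to 0.0811 when any one of 7 libraries was left out, namely HMLE-Twist mock replicates 1 and 2, HMLE-Twist salinomycin replicates 1 and 3, HMLE-pBp mock replicates 2 and 3 and HMLE-pBp salinomycin replicate 1. With the replicate block within each line, LRRC8C passed for the difference of responses (0.45, limma adjusted p = 0.0256). LRRC8E passed with that block in HMLE-Twist (limma adjusted p = 0.00408) and in HMLE-pBp (limma adjusted p = 0.00904), at 0.42 and -0.37. An antisense gene covers 3218 of its exon bases in the reference. The library kit marks strand, but how strand was counted is not given in the sources used here.

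Put together per length, the 5 LRRC8 transcripts summed to less in HMLE-Twist, and LRRC8A was a smaller share of them. The sum was 55.6 ± 2.76 FPKM in HMLE-Twist with salinomycin and 46.2 ± 5.07 FPKM with mock, and 127 ± 14.1 FPKM in HMLE-pBp with salinomycin and 131 ± 17.4 FPKM with mock (SD, n = 3 each). LRRC8A made up 36.7% ± 1.46 and 28.2% ± 6.20 of the sum in HMLE-Twist with salinomycin and mock, and 62.8% ± 0.803 and 55.2% ± 0.717 in HMLE-pBp with salinomycin and mock. LRRC8B and LRRC8C held 16.1% and 22.3% in HMLE-Twist with salinomycin, against 3.28% and 7.86% in HMLE-pBp with salinomycin.

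Within HMLE-pBp the shares of LRRC8A, LRRC8D and LRRC8E did not overlap between treatments, while the FPKM of each of these genes did. The LRRC8A share ran from 61.9% to 63.5% with salinomycin and from 54.5% to 55.9% with mock. The LRRC8D share ran from 15.2% to 16.1% with salinomycin and from 19.4% to 20% with mock. The LRRC8E share ran from 10.0% to 10.8% with salinomycin and from 12.2% to 14.3% with mock. In HMLE-Twist the LRRC8D share was 17.2% to 17.8% with salinomycin and 18% to 22.3% with mock, and the LRRC8A share was 35.5% to 38.3% with salinomycin and 21.0% to 32.2% with mock. These shares describe RNA, and the make-up of the channel protein was not measured.

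**Figure D2:**
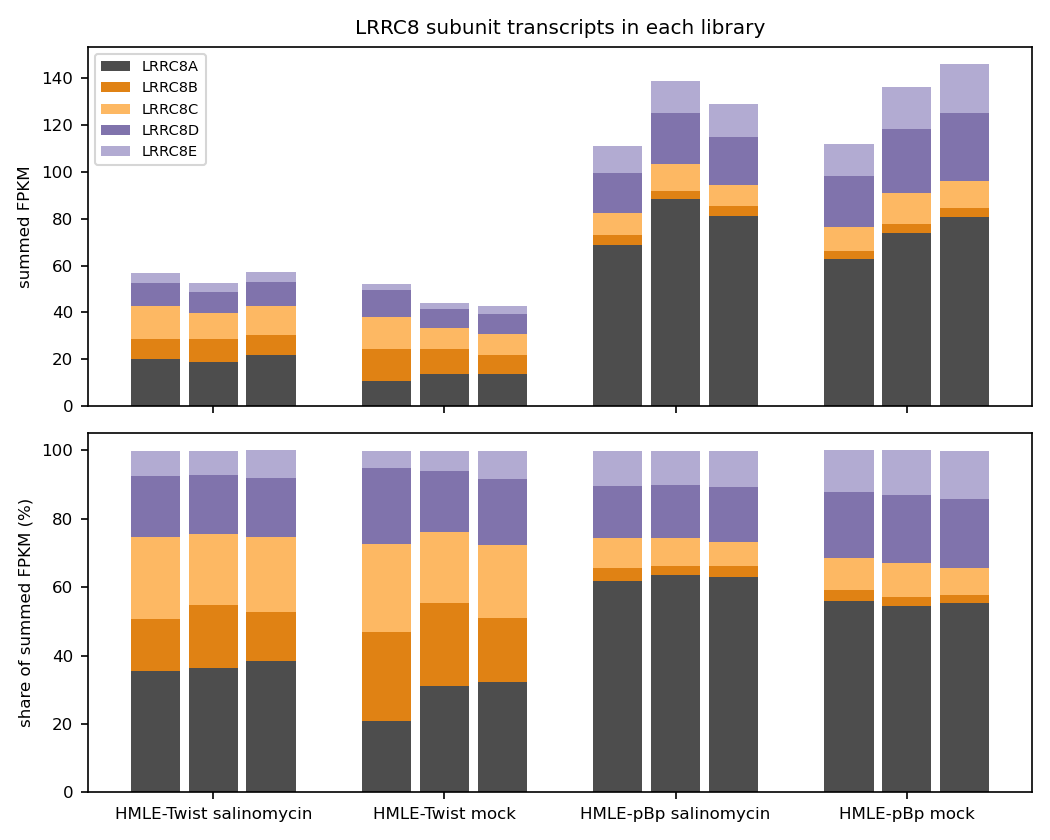
Summed FPKM of the 5 LRRC8 subunits (upper panel) and each subunit's share of that sum in percent (lower panel), 1 bar per library, with axes from 0. LRRC8A takes 54.5% to 63.5% of the sum in HMLE-pBp libraries and 21.0% to 38.3% in HMLE-Twist libraries.

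Of the 7 genes that entered the tests, 3 were past an adjusted p of 0.05 in HMLE-Twist (SLC6A6 and LRRC8A higher, AQP3 lower), where 26.5% of 11991 genes were (12.9% higher, 13.6% lower). In HMLE-pBp 2 were (AQP3 and SLC6A6, both lower), where 19.1% of the genes were (9.57% higher, 9.49% lower). The response of 2 differed, both higher in HMLE-Twist minus HMLE-pBp (AQP3 and SLC6A6), where that of 13.7% did (7.01% higher, 6.68% lower). The genes were picked with these contrasts known, so nothing is read from the counts. AQP3 left the HMLE-Twist count without mock replicate 2, salinomycin replicate 1 or salinomycin replicate 2 of that line (log2 fold change -0.40, -0.46 and -0.43 in that order). SLC6A6 left the HMLE-pBp count without mock replicate 3 or salinomycin replicate 1 of that line (-0.71 and -0.59 in that order). With a pseudocount of 0.1, AQP3 left the count for the difference. Without HMLE-Twist mock replicate 1, SLC5A3 and NFAT5 entered the HMLE-Twist count (0.34 each) and SLC5A3 and LRRC8D that for the difference (0.58 and 0.59). LRRC8A entered the last one without HMLE-pBp mock replicate 1 (0.60). With the replicate block within each line, the calls came to 4888 genes in HMLE-Twist, 4426 in HMLE-pBp and 3903 for the difference, and 4, 3 and 4 of the 7 genes were among them. The additions were AKR1B1 in HMLE-Twist, LRRC8D in HMLE-pBp, and LRRC8A and LRRC8D for the difference.

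**Figure D3:**
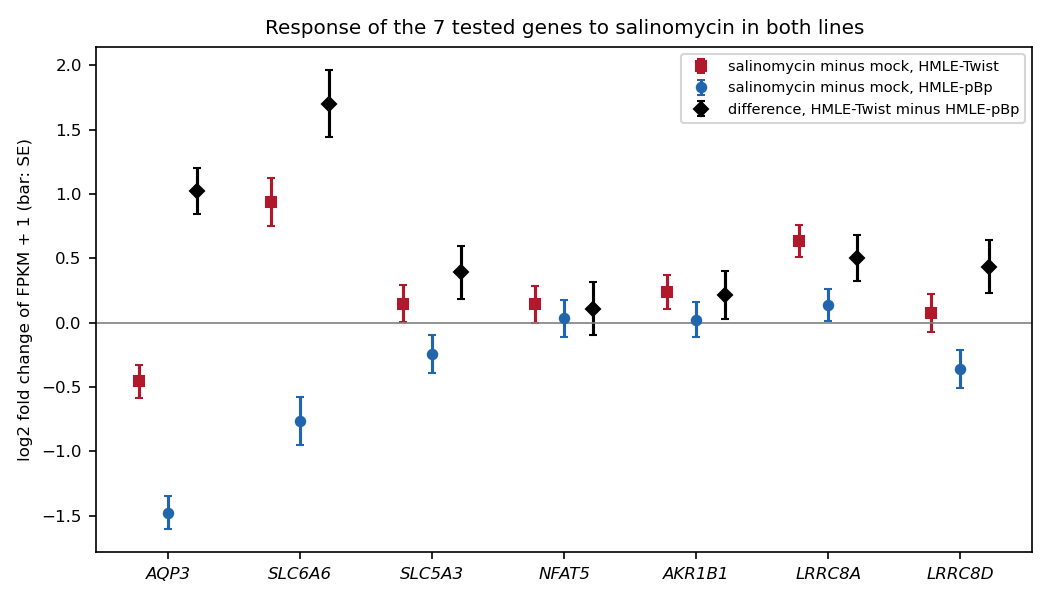
Log2 fold change of FPKM + 1 (bars: SE from the limma fit over all 12 libraries) for the 7 tested genes: salinomycin minus mock in HMLE-Twist (squares), in HMLE-pBp (circles), and HMLE-Twist minus HMLE-pBp (diamonds). SLC6A6 lies at 0.93 and -0.77 in the lines, AQP3 below 0 in both, and NFAT5 near 0 in both.

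Between the lines, 7 of the 7 tested genes were past the threshold under salinomycin, where 63.4% of all genes were (31.4% higher, 32.1% lower). Of the 7, AKR1B1 was higher and 6 were lower in HMLE-Twist. Under mock 6 were, all lower, where 73.3% of all genes were (36.1% higher, 37.3% lower). Of the 7 log2 differences under salinomycin, those of SLC6A6 (-0.51), SLC5A3 (-0.43), NFAT5 (-0.44) and AKR1B1 (0.33) did not stay past the threshold in every fit with 1 library left out. SLC6A6 left the count without HMLE-Twist salinomycin replicate 2 or 3 or HMLE-pBp salinomycin replicate 2 or 3, and AKR1B1 without HMLE-Twist salinomycin replicate 1 or 2 or HMLE-pBp salinomycin replicate 2 or 3. SLC5A3 left it without HMLE-Twist salinomycin replicate 2 or HMLE-pBp salinomycin replicate 2 or 3, and NFAT5 without HMLE-Twist salinomycin replicate 3 or HMLE-pBp salinomycin replicate 1. With total reads as the scale, SLC6A6, SLC5A3 and NFAT5 left it too. The order of the group means ran from HMLE-pBp mock down to HMLE-Twist mock for SLC6A6, SLC5A3 and LRRC8D, with HMLE-pBp salinomycin and then HMLE-Twist salinomycin between them. For NFAT5 and LRRC8A the HMLE-pBp groups overlapped at the top and HMLE-Twist salinomycin stood above HMLE-Twist mock, with overlap for NFAT5 alone. In that order HMLE-pBp salinomycin overlapped HMLE-Twist salinomycin for SLC6A6. For SLC5A3 the HMLE-Twist groups overlapped, and for LRRC8D the groups of each line overlapped.

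The genes whose levels followed AQP3 most closely over the 12 libraries were MACC1 (Pearson r = 0.997 of log2 FPKM + 1), TUBA4A (0.997) and SRGAP3 (0.996). For SLC6A6 they were ADORA2B (0.982), POLR3E (0.975) and ZNF142 (0.974). All such values rest on the same libraries and largely on the gap between the lines.

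The other genes of these pathways, 68 on 7 lists, were tested as a check on how widely the pathway moved, and 43 of them passed the filter. In HMLE-Twist 13 of the 43 passed, 8 up and 5 down, where 26.5% of all genes tested passed (12.9% up, 13.6% down), with a median log2 fold change of 0.03 against -0.01 over all genes tested. In HMLE-pBp 8 passed, 2 up and 6 down, against 19.1% of all genes (9.57% up, 9.49% down), with a median of -0.14 against -0.01. The response of 7 differed, against 13.7% of all genes. With the replicate block within each line, 19 of the 43 passed in HMLE-pBp and 15 for the difference. With that block 4426 and 3903 of the 11991 genes tested passed, in the same order. Between lines 34 passed under salinomycin (11 higher and 23 lower in HMLE-Twist), against 63.4% of all genes, and 31 under mock (9 higher, 22 lower), against 73.3%. Nothing is called particular to these lists from their counts.

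Of the 6 other osmolyte transporters 3 were tested. SLC2A13, a proton-coupled myo-inositol transporter, had 1.31, 1.37 and 1.30 FPKM in HMLE-Twist with salinomycin and 0.623, 0.743 and 0.619 FPKM with mock, and rose by 0.49 ± 0.08 (limma adjusted p = 0.00103). In HMLE-pBp it had 1.94, 2.11 and 1.85 FPKM with salinomycin and 2.35, 1.96 and 1.98 FPKM with mock, with overlap, and the difference of responses was 0.55 ± 0.11 (limma adjusted p = 0.00989). At levels near 1 FPKM the added 1 shrinks these values for SLC2A13: with 0.1 added they were 0.91 and 0.99, and the ratio of its means in HMLE-Twist was 2.0. SLC38A2, a neutral amino acid transporter, rose in HMLE-Twist by 0.36 ± 0.11 (limma adjusted p = 0.0267), a call that ended without any one of mock replicates 2 and 3 and salinomycin replicates 1 and 2 of the line (limma adjusted p 0.0532 to 0.111). In HMLE-pBp 0 of the 3 passed with limma, and 1 had an unadjusted p under 0.05. SLC38A2 passed there with the replicate block within each line (0.26, limma adjusted p = 0.0138). All 3 were lower in HMLE-Twist than in HMLE-pBp under both treatments, where 32.1% of all genes were lower under salinomycin and 37.3% under mock. The lysosomal amino acid transporter SLC36A1 differed most, at -1.31 ± 0.12 under salinomycin (limma adjusted p = 7.85e-07) and -1.49 ± 0.12 under mock (limma adjusted p = 1.72e-07).

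Of the 12 genes of osmolyte synthesis and breakdown, 8 were tested. GPCPD1, which breaks down the osmolyte glycerophosphocholine, went opposite ways in the lines. It had 10.7, 9.58 and 8.16 FPKM in HMLE-pBp with salinomycin and 5.62, 6.14 and 5.34 FPKM with mock, and rose there by 0.64 ± 0.12 (limma adjusted p = 0.00324). In HMLE-Twist it had 3.24, 4.35 and 3.51 FPKM with salinomycin and 5.32, 5.36 and 4.51 FPKM with mock, a log2 fold change of -0.37 ± 0.12 (limma adjusted p = 0.0317). That call ended without any one of mock replicates 1 and 2 and salinomycin replicates 1 and 3 of the line (limma adjusted p 0.0707 to 0.127). It also ended with no filter (limma adjusted p = 0.0548), with TPM (limma adjusted p = 0.0565) and with only the groups of the contrast (limma adjusted p = 0.064). The difference of responses was -1.01 ± 0.16 (limma adjusted p = 0.00296). SORD, the sorbitol dehydrogenase that follows AKR1B1, fell by 0.48 on the log2 scale in HMLE-pBp (limma adjusted p = 0.00837), to 11.5, 13.4 and 14.8 FPKM with salinomycin against 20, 17.3 and 18.8 FPKM with mock. The other 6 tested genes passed in neither line, and with the replicate block within each line 2 of them did so in HMLE-pBp. These were ALDH7A1, which makes the osmolyte betaine (0.34, limma adjusted p = 0.00661), and PNPLA6, a phospholipase (-0.43, limma adjusted p = 0.0301). ALDH7A1 also passed there without mock replicate 1 (0.46, limma adjusted p = 0.0427), and with that block both passed for the difference of responses (-0.41 and 0.61, limma adjusted p = 0.0172 and 0.0323). Under mock, 4 of the 8 were lower in HMLE-Twist, where 37.3% of all genes were. Among the 4 were PNPLA6 at -1.48 ± 0.22 (limma adjusted p = 5.6e-05) and the inositol synthase ISYNA1 at -1.38 ± 0.14 (limma adjusted p = 1.78e-06). With 0.1 added, ISYNA1 was at -2.33, and its mean in HMLE-Twist was 0.17 times that in HMLE-pBp, against 0.351 times for PNPLA6.

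All 12 regulators and further targets of NFAT5 were tested. In HMLE-Twist 5 passed, 1 up and 4 down, against 26.5% of all genes, and in HMLE-pBp 3 passed, 1 up and 2 down, against 19.1% of all genes. FYN, a kinase linked to NFAT5 activation, rose by 0.36 ± 0.08 in HMLE-Twist (limma adjusted p = 0.00628) and by 0.54 ± 0.08 in HMLE-pBp (limma adjusted p = 0.0011). HSPA4L, a chaperone known as osmotic stress protein 94, fell by 0.65 and 0.62 on the log2 scale in HMLE-Twist and HMLE-pBp (limma adjusted p = 0.00251 and 0.00564). DHX9, an RNA helicase that binds NFAT5, fell by 0.43 in both (limma adjusted p = 0.00539 and 0.00917). S100A4, a calcium-binding protein, fell by 0.61 in HMLE-Twist (limma adjusted p = 0.00959), to 31.9, 30.2 and 23.2 FPKM with salinomycin against 47.1, 51.1 and 34.2 FPKM with mock. XPO1, an exportin, fell in HMLE-Twist by 0.40 (limma adjusted p = 0.0141), and passed no longer without salinomycin replicate 3 (limma adjusted p = 0.0565). For the difference of responses 0 of the 12 passed with limma, and 1 had an unadjusted p under 0.05. With the replicate block within each line, XPO1 and SGK1, another gene of this list, passed in HMLE-pBp (-0.32 each, limma adjusted p = 0.0189 and 0.0247). S100A4 passed with that block for the difference (-0.68, limma adjusted p = 0.00363). S100A4 also passed there without HMLE-Twist mock replicate 3 (-0.85, limma adjusted p = 0.00902). Between lines 7 of the 12 passed under salinomycin, 6 higher and 1 lower in HMLE-Twist. Under mock 6 passed, 5 higher and 1 lower. Of all genes, 31.4% and 36.1% were higher and 32.1% and 37.3% lower, in the same order. S100A4 differed by 2.32 ± 0.15 and 3.0 ± 0.15, FYN by 1.46 ± 0.08 and 1.63 ± 0.08, and HSPA4L by -1.26 and -1.23. HSPA1A and HSPA1B, which are near-identical copies, are uncertain and not described, though HSPA1A is counted among those higher under salinomycin.

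Among ion transporters that restore volume, 9 of 12 were tested. SLC12A4 and SLC12A7 are potassium chloride cotransporters, which let salt out of swollen cells, and both passed in HMLE-Twist. SLC12A4 had 16.0, 16.5 and 17.8 FPKM with salinomycin and 7.93, 10.6 and 11.6 FPKM with mock, and rose by 0.70 ± 0.13 (limma adjusted p = 0.00177). Its difference of responses passed with the replicate block within each line (0.48, limma adjusted p = 0.0234). In the fit of all 12 libraries with no block it did not (limma adjusted p = 0.0945). SLC12A7 had 1.88, 2.05 and 2.36 FPKM in HMLE-Twist with salinomycin and 0.952, 1.23 and 1.65 FPKM with mock. In HMLE-pBp it had 0.894, 1.04 and 1.37 FPKM with salinomycin and 1.85, 1.82 and 2.39 FPKM with mock. The opposite log2 fold changes of SLC12A7 were 0.45 ± 0.13 (limma adjusted p = 0.0219) and -0.52 ± 0.13 (limma adjusted p = 0.0162), with a difference of 0.98 ± 0.18 (limma adjusted p = 0.00641). With 0.1 added, these were 0.70, -0.83 and 1.53. The first call ended without any one of mock replicates 1 and 2 and salinomycin replicates 2 and 3 of HMLE-Twist (limma adjusted p 0.0523 to 0.0895). The second ended without mock replicate 3 or salinomycin replicate 1 of HMLE-pBp (limma adjusted p = 0.0779 and 0.0669). SLC4A2, a chloride bicarbonate exchanger, fell in HMLE-pBp to 41.7, 58.0 and 57.7 FPKM with salinomycin against 81.3, 89.2 and 108 FPKM with mock (-0.81 ± 0.17, limma adjusted p = 0.0065). SLC12A2, the sodium potassium chloride cotransporter that brings salt into shrunken cells, did not pass with salinomycin in either line, and did so in HMLE-pBp with the replicate block within each line (-0.24, limma adjusted p = 0.029). It was lower in HMLE-Twist, by -1.72 ± 0.11 under salinomycin (limma adjusted p = 4.3e-08) and -1.91 ± 0.11 under mock (limma adjusted p = 1.22e-08). Of the 9, 3 were higher and 5 lower in HMLE-Twist under salinomycin, and 2 were higher and 6 lower under mock. Of all genes, 31.4% and 36.1% were higher and 32.1% and 37.3% lower, in the same order. SLC12A7 was among those higher under salinomycin (0.56 ± 0.13, limma adjusted p = 0.00222) and among those lower under mock.

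Of 11 other channels and factors tied to swelling or stretch, 8 were tested. KCNN4, a calcium-activated potassium channel, had 11.2, 8.52 and 10.6 FPKM in HMLE-Twist with salinomycin and 4.69, 5.40 and 5.79 FPKM with mock, and rose by 0.81 ± 0.19 (limma adjusted p = 0.00679). KCNN4 in HMLE-pBp had 45.9, 72.6 and 81.8 FPKM with salinomycin and 72.3, 80.3 and 95.1 FPKM with mock, and did not pass. The difference of responses was 1.15 ± 0.26 (limma adjusted p = 0.0164). TMEM206, an acid-activated chloride channel, had 7.61, 5.50 and 5.94 FPKM in HMLE-Twist with salinomycin and 4.73, 4.49 and 5.38 FPKM with mock. TMEM206 in HMLE-pBp had 16.1, 13.9 and 14.2 FPKM with salinomycin and 20.1, 18.3 and 18.8 FPKM with mock. Its fold changes lay close to the threshold (0.32, limma adjusted p = 0.051, and -0.35, limma adjusted p = 0.0424), and the HMLE-pBp call was lost without any one of the mock libraries or of salinomycin replicates 2 and 3 (limma adjusted p 0.083 to 0.121). With the replicate block within each line, TMEM206 passed in HMLE-Twist (limma adjusted p = 0.0207). Its difference of responses was 0.67 ± 0.16 (limma adjusted p = 0.0173). CLCN3, a chloride and proton exchanger of endosomes, rose in HMLE-Twist by 0.28 ± 0.09 (limma adjusted p = 0.0329), a call lost without mock replicate 2 or 3 or any one of the 3 salinomycin libraries (limma adjusted p 0.0691 to 0.107). Between the lines 7 of these 8 were lower in HMLE-Twist under each treatment and 0 were higher, where 32.1% of all genes were lower under salinomycin and 37.3% under mock. One of the 7, TTYH3, did not pass under salinomycin without HMLE-Twist salinomycin replicate 1 or HMLE-pBp salinomycin replicate 2 or 3 (limma adjusted p 0.0554 to 0.0822). The 8 had a list median of -0.95 under salinomycin and -1.28 under mock, against 0.01 and 0.00 over all genes tested.

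**Figure D4:**
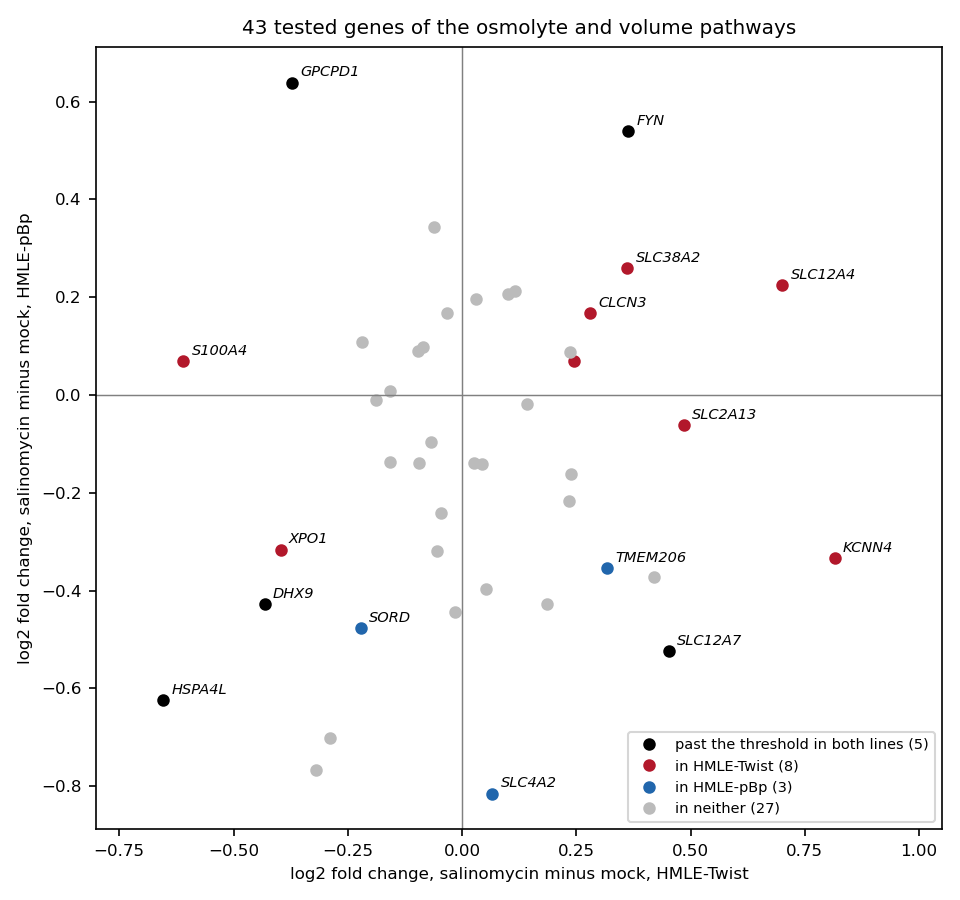
Log2 fold change of FPKM + 1 with salinomycin in HMLE-Twist (horizontal axis) and in HMLE-pBp (vertical axis) for the 43 tested genes of the 7 lists, coloured by whether the limma adjusted p was under 0.05, with names for those described in the text. FYN, HSPA4L and DHX9 lie on the same side of 0 in both lines, while GPCPD1 and SLC12A7 lie on opposite sides.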

How the data were processed

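RNA was sequenced from 12 samples, 3 biological replicates in each of 4 groups, as stranded mRNA libraries from 750 ng of RNA with 75 cycles per end, per the labels. For mock libraries the authors deposited FPKM. For salinomycin libraries the tables also carry the name FPKM, but the deposited values behave as log2 counts shrunk towards the gene's mean. Both this and size factors within each mock table were inferred from the values, as no label describes these steps. The submitters' processing notes name DESeq2 (1.1.0) and hg19. Aligner, counter and annotation: not given in the sources used. The tables were normalized separately and could not be compared as deposited.

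Whole reads were recovered: mock values are whole multiples of 1 step per gene, and the shrinkage was inverted, which put 98.5% (HMLE-Twist) and 96.1% (HMLE-pBp) of salinomycin values within 0.1 of a whole read. For means over 10000 reads these shares were 75.4% and 59.0%. The inversion was tested on reads simulated under the same inferred model. Such a test cannot show that the deposited values follow that model. Recovery of mock reads and lengths was not tested on simulated data. Recovered lengths were set against the reference for 12684 genes with over 100 mock reads. They lay within 5% of the longest transcript or of the union of exons for 46.7%. 475 of 26364 genes were left out because their multiple was not settled, GDPD5 of the lists among them. FPKM was rebuilt with size factors over all 12 libraries. Since the recovered reads are inferred, limma (3.58.1, lmFit and eBayes with trend) on log2(FPKM + 1) was used, over 4 groups with no covariate, for 11991 genes with 1 FPKM in at least 3 of 12 libraries, with Benjamini-Hochberg adjustment over all of them and a threshold of 0.05. Python 3.11.15 and R 4.3.3 were used.

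Same-numbered libraries deviated together within each line (correlations 0.45, 0.43 and 0.72 in HMLE-Twist, and 0.54, 0.23 and 0.60 in HMLE-pBp), so the numbers were taken to pair the libraries there; across lines 3 values lay under 0.1. The reported fit did not use this pairing, and the block within each line was added after seeing the data.

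The genes, lists and tests were chosen with earlier results of these data known. Named are all 8 genes, every other LRRC8 subunit, and of each list up to 4 genes past the threshold per contrast, largest change first. Other alternatives were a pseudocount of 0.1, no filter, total reads as the scale, TPM, only the groups of a contrast, no gene left out, and leaving out each library in turn. Promoter sequences are RefSeq's, on GRCh38.p14, and the searches for TATAAA and CANNTG were added after seeing the data. Some listed genes are counted but not reported by name here.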

Additional observations from a re-analysis of the deposited data

Results flagged for a closer look

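For 7 genes of the pathway lists the response to salinomycin differed between the lines by the interaction term of the limma fit, with adjustment over all genes tested. The log2 difference of responses, HMLE-Twist minus HMLE-pBp, was 1.15 for KCNN4 (adjusted p = 0.016), 0.98 for SLC12A7 (adjusted p = 0.0064), 0.88 for SLC4A2 (adjusted p = 0.031), 0.79 for LRRC8E (adjusted p = 0.03), 0.67 for TMEM206 (adjusted p = 0.017), 0.55 for SLC2A13 (adjusted p = 0.0099) and -1.01 for GPCPD1 (adjusted p = 0.003). SLC4A2 lost the call without any one of HMLE-Twist mock replicate 2, HMLE-Twist salinomycin replicates 1 and 3, HMLE-pBp mock replicates 2 and 3 and HMLE-pBp salinomycin replicate 1 (adjusted p 0.0556 to 0.082). LRRC8E lost it without any one of 7 libraries (adjusted p 0.0508 to 0.0811) and with no filter (adjusted p = 0.0565).

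SLC6A6 was higher with salinomycin in every HMLE-Twist library and lower in every HMLE-pBp library, with a log2 difference of responses of 1.70. It was chosen with that pattern known, so no p-value is given for this difference, although the limma fit placed it past the threshold; it was not tested in libraries other than those that showed it.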

How the results depend on the processing

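Of the 10 counts of genes past the threshold, over all genes and over the pathway lists, 127 values under the alternatives stayed within 1.5 times the reported count and 19 did not. With a replicate block over all groups, the calls in HMLE-pBp came to 4029 (19 on the lists) and those for the difference of responses to 3495 (11 on the lists). With the replicate block within each line they came to 4888 in HMLE-Twist, 4426 in HMLE-pBp (19 on the lists) and 3903 for the difference (15 on the lists), against 3181, 2285 (8 on the lists) and 1641 (7 on the lists) with no block, and 3180, 2285 and 1641 of those were kept. The blocks ended no call of a gene named in the text. Leaving out 1 library gave 1149 to 2549 calls in HMLE-pBp, 785 to 2371 for the difference, and 8 to 13 list genes in HMLE-Twist. The calls in HMLE-pBp were 1366, 1149 and 1241 without its mock replicate 2, mock replicate 3 and salinomycin replicate 1. Those for the difference were 887, 823 and 812 without HMLE-Twist mock replicate 2, salinomycin replicate 1 and salinomycin replicate 3, and 886, 785 and 1083 without HMLE-pBp mock replicate 2, mock replicate 3 and salinomycin replicate 2. The 8 list genes in HMLE-Twist were without its salinomycin replicate 3. The causes were not tested. No value of the 8 genes or of the lists that was past the threshold changed sign; some that were not past it did, such as PNPLA6 in HMLE-Twist (-0.03 to 0.34). With TPM, 62.2% of the calls for the difference of responses were higher, against 51.2%, and with total reads as the scale 60.4% of the calls between lines under salinomycin were higher, against 49.4%. Total reads shifted the median of all genes between lines by 0.14 under salinomycin and 0.13 under mock. Depth limits AQP1, with 0 to 8 reads, and AQP3 in HMLE-Twist, with 18 to 54 reads.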
